A study of Homo sapiens with 24 samples.

Results

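Vehicle-treated MV-4-11 and Kasumi-1, established human cell lines grown from acute myeloid leukaemias with different fusion oncogenes, were compared gene by gene in deposited RNA-seq expression values. MV-4-11 carries a fusion of MLL (KMT2A) with AFF1, and Kasumi-1 carries RUNX1-RUNX1T1. Both lines had been kept in RPMI-1640 medium with foetal bovine serum and had received DMSO, the solvent of the study's BET bromodomain inhibitors, for 24 h. The genes described are those listed at 1 FPKM or more in at least 2 of the 4 libraries, which gave 12794 of the 30373 rows of the expression table. FPKM stands for fragments per kilobase of transcript scaled to the mapped fragments of the library, a length-normalised level. Each line was represented by 2 libraries, and the series holds 24 libraries from 4 lines (MV-4-11, Kasumi-1, the leukaemia line SKM-1 and the lung cancer line NCI-H1299), each under DMSO, ABBV-075 or ABBV-744. Separate cultures are not stated for the libraries of a line, so p-values measure the spread between these libraries, which may be technical. Each line is a single line from a single patient, so the comparison is between MV-4-11 and Kasumi-1 and not between fusion classes.

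MLL fusions hold open a group of genes that is normally shut down as blood progenitors mature, above all the later HOXA genes and their cofactor MEIS1, and the leukaemias they drive often have monocytic features. RUNX1-RUNX1T1 joins the DNA-binding domain of the haematopoietic factor RUNX1 to the corepressor-binding protein ETO and is known from leukaemias of granulocytic character that keep CD34, KIT and myeloperoxidase. Both fusions leave blast cells that resemble myeloid progenitors stopped at different points, and the genes below are ordered from the fusions and their targets to granule, monocyte and progenitor genes, regulators, receptors and the cell cycle.

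The levels were compared on the log2(FPKM + 1) scale with limma, in a fit over the 12 libraries of both lines, and differences are given as MV-4-11 minus Kasumi-1 ± the standard error (n = 2 libraries a line). A gene was called where the p-value adjusted by Benjamini-Hochberg over all 12794 genes was under 0.05, and called at 2-fold where the difference was also at least 1 in size. Of the 12794 genes, 4775 (37.3%) were called higher and 3384 (26.4%) lower in MV-4-11. At 2-fold these numbers were 2557 higher (20%) and 1512 lower (11.8%), and 142 genes were called higher and 79 lower by at least 16-fold on this scale. The median difference over all genes was 0.13, and 4635 genes were not called. Among all calls 58.5% were higher in MV-4-11, a share that was 48.3% after quantile normalization and 52.6% after median-ratio scaling. These scalings moved the median difference by -0.18 and -0.11, so the balance between the directions, and differences of about this size, depend on the scaling. Of all genes, 1185 reached 1 FPKM only in MV-4-11 and 857 only in Kasumi-1. The filter fixed the direction of such genes but not the size of the difference. Of the 2557 higher genes 920 were of this kind, and of the 1512 lower genes 676. The remaining 1637 higher and 836 lower genes reached 1 FPKM in both lines.

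Beside these counts stand the facts of the libraries. The libraries of a line were close to each other, with a standard deviation of the log2 difference between them of 0.251 in MV-4-11 and 0.268 in Kasumi-1. Transcripts of the mitochondrial genome made up 8.08% to 8.41% of all FPKM in MV-4-11 and 12.4% to 13.2% in Kasumi-1, and their part in the differences was measured by leaving them out (closing section). The number of reads behind each library is unknown, because only FPKM were used, so no counting intervals can be given. A permutation of 2 libraries against 2 cannot give a p below 0.333, so the calls rest on the spread shared across genes. At the edge of the rule, CCDC122 (1.57 and 1 FPKM in MV-4-11, 0.443 and 0.366 in Kasumi-1) was just inside and KATNAL1 (1.26 and 0.999 FPKM in MV-4-11, 0.645 and 0.710 in Kasumi-1) just outside. In bulk RNA, fewer cells that express a gene and less RNA in each cell cannot be told apart.

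**Figure D1:**
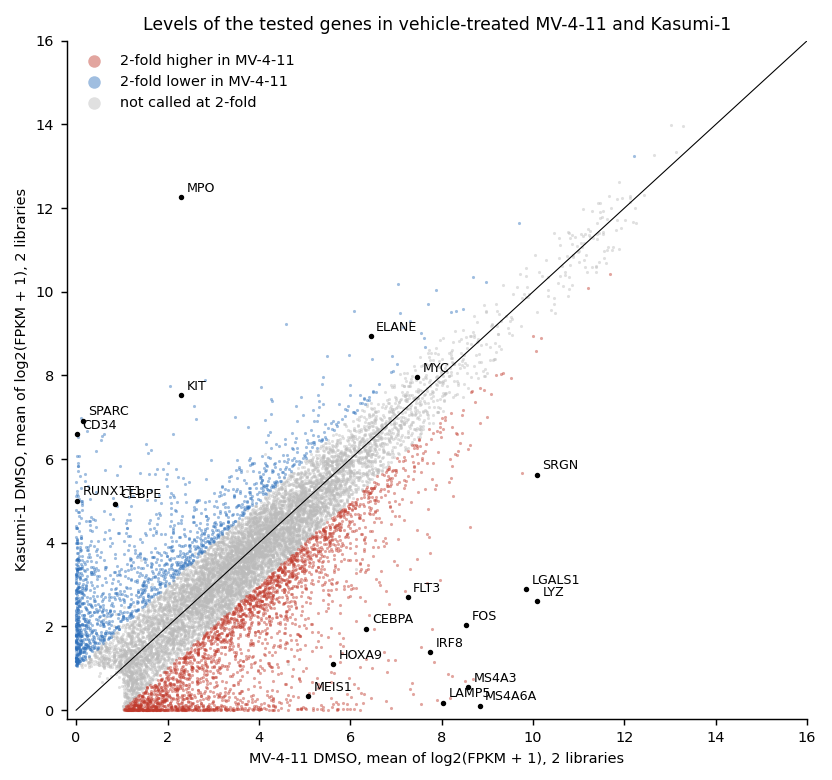
Mean log2(FPKM + 1) of each tested gene in vehicle-treated MV-4-11 (horizontal axis) and Kasumi-1 (vertical axis), with genes called at 2-fold higher in MV-4-11 in red and lower in blue, and the line of equal levels in black (genes of the sex chromosomes that mark sex are not drawn). MPO lies farthest above the line at -9.97, and MS4A6A, MS4A3, LAMP5 and LYZ lie far below it, with differences of 8.72, 8.03, 7.85 and 7.48.

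Of the 4 fusion partner genes, RUNX1T1 differed most between the lines. RUNX1T1, the ETO portion of the Kasumi-1 fusion, was listed at 0.0193 and 0.0171 FPKM in MV-4-11, against 29.9 and 32.5 FPKM in Kasumi-1. The libraries of MV-4-11 were near 0 and those of Kasumi-1 were all high, a difference of -4.98 ± 0.12 (limma, adjusted p = 3.58e-10). RUNX1, its fusion partner, which every blood progenitor uses, had 66.4 and 59.5 FPKM in MV-4-11, against 53.7 and 46.2 FPKM in Kasumi-1, and its difference of 0.33 ± 0.13 just passed the threshold (adjusted p = 0.0468). The call was lost under each other scaling, and without either MV-4-11 library or Kasumi-1 replicate 2. An FPKM per gene does not separate normal from fused transcripts. KMT2A, the 5′ portion of the MV-4-11 fusion, had 11.04 and 11.5 FPKM in MV-4-11, against 12.7 and 13.5 FPKM in Kasumi-1, with a difference of -0.20 ± 0.12 that was not called (95% interval -0.47 to 0.07), although it was called lower after quantile normalization (-0.40) and median-ratio scaling (-0.31). AFF1, its partner, had 22 and 23.2 FPKM in MV-4-11, against 10.5 and 10.3 FPKM in Kasumi-1 and was called higher by 1.05 ± 0.13 (adjusted p = 5.78e-05).

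Around these, 19 of 20 listed RUNX and ETO family genes and their partners were tested. Of the 19, 10 were called higher and 6 lower, beside 37.3% and 26.4% of all genes. RUNX2 and RUNX3, the paralogues of RUNX1, were both called higher in MV-4-11: RUNX2 had 30.4 and 28.2 FPKM in MV-4-11, against 7.97 and 6.72 FPKM in Kasumi-1, and RUNX3 had 30.7 and 31.7 FPKM in MV-4-11, against 7.37 and 5.86 FPKM in Kasumi-1. CBFA2T3, an ETO paralogue that binds the same corepressors, had 16.8 and 19.5 FPKM in MV-4-11, against 3.79 and 2.56 FPKM in Kasumi-1, a difference of 2.21 ± 0.17. LDB1, a bridging protein of enhancer complexes, had 28.7 and 33.9 FPKM in MV-4-11, against 102 and 93.2 FPKM in Kasumi-1 and was lower in MV-4-11 by -1.62 ± 0.19. LYL1, a basic helix-loop-helix factor of stem cells, was also lower (-1.07 ± 0.24), as was TCF12 (-0.71 ± 0.14), one of the E proteins that ETO binds. Its paralogue TCF4 had 3.96 and 3.13 FPKM in MV-4-11, against 0.0066 and 0.115 FPKM in Kasumi-1 and was higher by 2.10 ± 0.13. TCF3 (0.38 ± 0.17) and the corepressor SIN3A (-0.04 ± 0.11) were not called, although TCF3 was called with only the 4 DMSO libraries in the fit (adjusted p = 0.0362) and with the Kasumi-1 ABBV-075 libraries left out (0.0223).

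HOXA genes did not differ as a block between the lines. HOXA9, the main HOX oncogene of MLL leukaemia, had 52.1 and 44.8 FPKM in MV-4-11, against 1.45 and 0.863 FPKM in Kasumi-1, and its libraries were far apart between the lines, with a difference of 4.53 ± 0.18 (adjusted p = 1.04e-08). HOXA10 had 31.8 and 27.95 FPKM in MV-4-11, against 18.6 and 19.6 FPKM in Kasumi-1, which was called higher by a smaller 0.61 ± 0.14 (adjusted p = 0.00283). HOXA11 had 2.1 and 2.15 FPKM in MV-4-11, against 1.78 and 1.2 FPKM in Kasumi-1 and was not called at 0.34 ± 0.14, although it was called without Kasumi-1 replicate 1 (0.51). These are the genes at the 5′ side of the cluster that were on in MV-4-11. HOXA5, nearer the 3′ side, had 0.142 and 0.0149 FPKM in MV-4-11, against 9.36 and 8.13 FPKM in Kasumi-1 and was called lower in MV-4-11 by -3.18 ± 0.11 (adjusted p = 3.87e-09). In the cluster, 9 measured genes stayed below the filter, among them HOXA3 at 0 and 0.0152 FPKM in MV-4-11, against 1.04 and 0.823 FPKM in Kasumi-1, HOXA4 at 0.0227 and 0.129 FPKM in MV-4-11, against 0.742 and 0.658 FPKM in Kasumi-1, and HOXA7 at 0.0195 and 0.0491 FPKM in MV-4-11, against 0.249 and 0.172 FPKM in Kasumi-1. HOXA2, HOXA6, HOXA13, HOTTIP and HOXA-AS3 did not exceed 0.6 FPKM in any library of either line, and HOXA11-AS, antisense to HOXA11, was at 0.709 and 0.919 FPKM in MV-4-11, against 0.828 and 1.34 FPKM in Kasumi-1. No source used here states whether strand was kept, and reads of HOXA11 and its antisense gene cannot be told apart.

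In the HOXB cluster, 4 genes passed the filter and each passed only through MV-4-11, where their levels were low. HOXB4, a factor that expands blood stem cells, had 3.97 and 4.29 FPKM in MV-4-11, against 0.0194 and 0.0213 FPKM in Kasumi-1. HOXB3 had 2.78 and 2.58 FPKM in MV-4-11, against 0 and 0.0324 FPKM in Kasumi-1. HOXB6 was at 1.697 and 2.29 FPKM in MV-4-11 and HOXB7 at 1.65 and 1.45 FPKM, and both stood at 0.03 FPKM or less in Kasumi-1. Their differences ran from 1.33 to 2.33, and the remaining HOXB1, HOXB2, HOXB5, HOXB8, HOXB9 and HOXB13 were below 0.1 FPKM in all 4 libraries.

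The cofactors that sharpen HOX binding also split by gene. MEIS1 had 36.05 and 29.6 FPKM in MV-4-11, against 0.258 and 0.262 FPKM in Kasumi-1, a difference of 4.74 ± 0.13 (adjusted p = 8.91e-10). PBX3, its dimer partner in MLL leukaemia, had 52.9 and 44.1 FPKM in MV-4-11, against 0.127 and 0.105 FPKM in Kasumi-1 and differed by 5.46 ± 0.13. Both were near 0 in Kasumi-1 and clearly on in MV-4-11. PBX2 had 29.5 and 33.1 FPKM in MV-4-11, against 72.6 and 61.7 FPKM in Kasumi-1 and MEIS2 had 3.53 and 3.17 FPKM in MV-4-11, against 6.68 and 7.29 FPKM in Kasumi-1, so these paralogues were lower in MV-4-11, by -1.07 ± 0.13 and -0.88 ± 0.17. PKNOX1 was just called higher (0.35 ± 0.14, adjusted p = 0.0457), a call lost under each other scaling and when any of the 4 libraries was left out. MEIS3, PBX4 and PKNOX2 stayed below 1 FPKM in all 4 libraries.

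**Figure D2:**
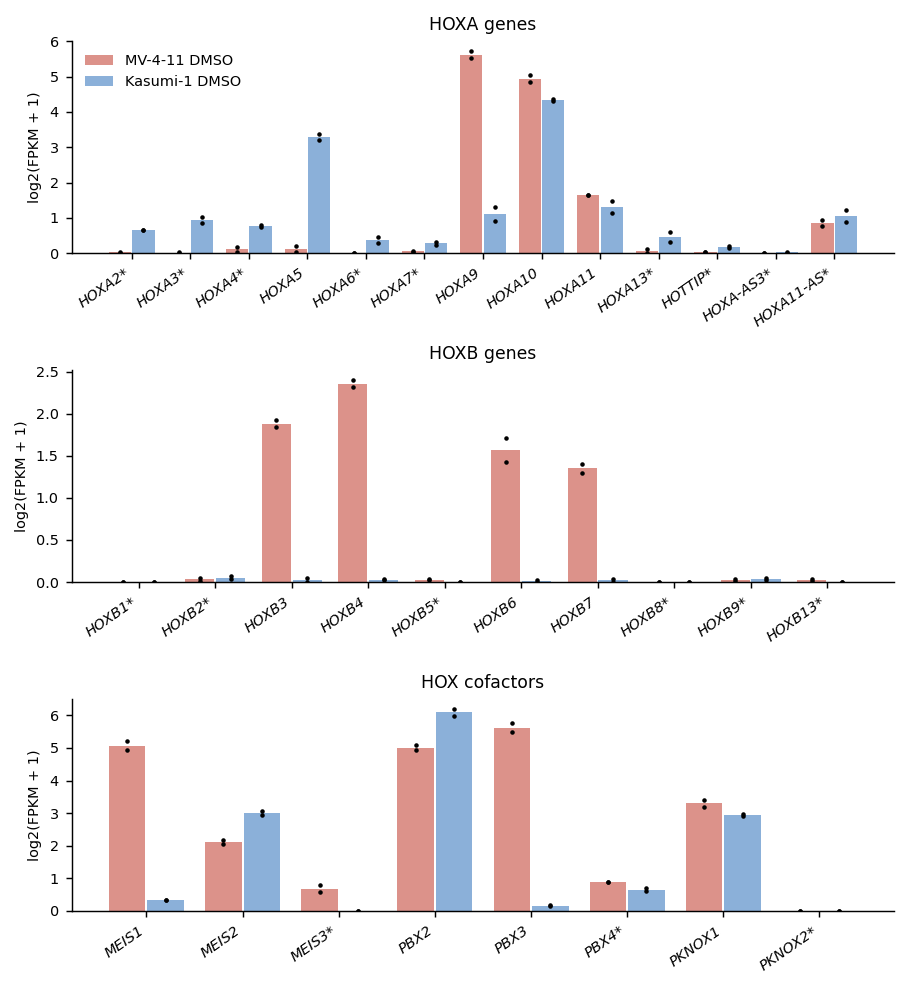
Levels of the HOXA genes, HOXB genes and HOX cofactors as log2(FPKM + 1), with MV-4-11 in red to the left of Kasumi-1 in blue, bars for the mean of 2 libraries and black points for each library; an asterisk marks genes below the filter. HOXA9, MEIS1 and PBX3 stand high in MV-4-11 alone, HOXA10 is high in both lines, and HOXA5 is at 9.36 and 8.13 FPKM in Kasumi-1 with bars near 0 in MV-4-11.

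Of 25 tested genes listed as targets of MLL fusions, 18 were called higher and 5 lower in MV-4-11, 14 and 2 of them at 2-fold, and their median difference was 1.56, beside 0.13 over all genes. Over all genes 37.3% were called higher and 26.4% lower, 20% and 11.8% at 2-fold. The filter was passed by 5 of the 25 only through MV-4-11 and by 2 only through Kasumi-1, which fixed their direction. LAMP5, a lysosome-associated membrane protein used as a marker of MLL leukaemia, had 256 and 265 FPKM in MV-4-11, against 0.173 and 0.0907 FPKM in Kasumi-1. LGALS1, the galectin-1 gene, had 857 and 1002 FPKM in MV-4-11, against 6.698 and 6.21 FPKM in Kasumi-1. The LAMP5 difference was 7.85 ± 0.14 and that of LGALS1 6.96 ± 0.17. Neither gene had overlapping libraries, nor had 83.9% of all genes. CSPG4, whose product NG2 is used to recognise MLL leukaemia by flow cytometry, had 5.55 and 7.56 FPKM in MV-4-11, against 0.0142 and 0.0209 FPKM in Kasumi-1 and differed by 2.88 ± 0.12. The list also held genes that went the other way. HMGA2, a chromatin architectural protein of foetal cells, had 0.144 and 0.174 FPKM in MV-4-11, against 4.38 and 4.34 FPKM in Kasumi-1 and was lower by -2.21 ± 0.16. JMJD1C, a histone demethylase family member, was lower by -0.73 ± 0.19 with 29.1 and 20.4 FPKM in MV-4-11, against 37.1 and 45.3 FPKM in Kasumi-1, and BCL11A, a zinc-finger repressor, by -0.71 ± 0.22. Both of these calls were lost without MV-4-11 replicate 2, and that of JMJD1C also without Kasumi-1 replicate 2 and that of BCL11A without Kasumi-1 replicate 1. MEF2C had 35.1 and 31.1 FPKM in MV-4-11, against 36.97 and 39.7 FPKM in Kasumi-1 and was not called (-0.21 ± 0.14), although it was called lower after quantile normalization (-0.39).

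The MLL complex itself and its elongation partners had shares of calls near those of all genes, with 9 genes called higher, 6 lower and 12 not called of 27, and 4 higher and 3 lower at 2-fold. AFF3, a paralogue of AFF1 found in the same elongation complexes, had 17.7 and 17.2 FPKM in MV-4-11, against 0.0824 and 0.0854 FPKM in Kasumi-1, a difference of 4.09 ± 0.10. AFF2, another paralogue, had 0.0032 and 0.002 FPKM in MV-4-11, against 2.24 and 2.69 FPKM in Kasumi-1 and was lower by -1.79 ± 0.09. MLLT3, itself a common MLL fusion partner, had 0.516 and 0.513 FPKM in MV-4-11, against 4.59 and 6.02 FPKM in Kasumi-1 and was lower by -2.05 ± 0.17. MLLT10 was lower by -1.09 ± 0.14, while ASH2L, a core subunit of the histone methyltransferase, had 72.1 and 68.8 FPKM in MV-4-11, against 25.6 and 24.1 FPKM in Kasumi-1 and was higher by 1.47 ± 0.10. CDK9, the kinase that releases paused polymerase, was higher by 1.12 ± 0.19. MEN1 (-0.04 ± 0.19), the adaptor of MLL fusions, and WDR5 (0.13 ± 0.16) were not called.

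Genes listed here as high in RUNX1-RUNX1T1 leukaemia were mostly lower in MV-4-11. Of 20 listed, 8 stayed below the filter. Of 12 tested, 10 were called lower at 2-fold, beside 11.8% of all genes, 1 higher and 1 not called, with a median difference of -4.43. Of these 12, 8 passed the filter only through Kasumi-1, which fixed their direction. Among the 857 genes of the whole comparison that passed only in this way, 676 were called lower at 2-fold. TRH, the thyrotropin-releasing hormone precursor, had 0.0208 and 0.0524 FPKM in MV-4-11, against 106 and 78.7 FPKM in Kasumi-1. JUP, the junction protein plakoglobin, had 0.394 and 0.558 FPKM in MV-4-11, against 96.1 and 90.8 FPKM in Kasumi-1. SPARC, a matrix glycoprotein, had 0.0726 and 0.138 FPKM in MV-4-11, against 128 and 112 FPKM in Kasumi-1. In each case both Kasumi-1 libraries were high and both MV-4-11 libraries were under 1 FPKM, with differences of -6.48 ± 0.21, -6.00 ± 0.26 and -6.77 ± 0.12. LAT2, an adaptor of immune receptor signalling, was the list member called higher, and its place on this list was not tested. It had 154 and 171 FPKM in MV-4-11, against 0.786 and 0.368 FPKM in Kasumi-1 and was higher by 6.71 ± 0.18 (adjusted p = 7.26e-10). CCND2, a G1 cyclin, had 7.48 and 6.57 FPKM in MV-4-11, against 7.402 and 5.62 FPKM in Kasumi-1 and was not called (0.10 ± 0.15).

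Genes listed for primary granules and promyelocytes, not all of which encode granule proteins, differed strongly in both directions. The promoters of 4 of them are shown because the list held genes on opposite sides of the comparison: PRTN3 and PRSS57 were lower in MV-4-11, and MS4A3 and CTSG higher. Each sequence is the 250 bases before the annotated start, 5′ to 3′ on the gene's strand, from RefSeq on GRCh38.p14: PRTN3 at chr19:840749-840998 (+), PRSS57 at chr19:695453-695702 (-), MS4A3 at chr11:60056415-60056664 (+) and CTSG at chr14:24576251-24576500 (-). Capitals mark matches on either strand to TGTGGT, the core that RUNX proteins read, or to GAGGAA, an ETS core of the kind read by PU.1.
PRTN3: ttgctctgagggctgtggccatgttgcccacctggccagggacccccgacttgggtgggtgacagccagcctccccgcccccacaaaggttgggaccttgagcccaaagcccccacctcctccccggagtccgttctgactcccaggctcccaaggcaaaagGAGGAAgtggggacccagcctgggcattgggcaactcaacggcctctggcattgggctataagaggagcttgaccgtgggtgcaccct
PRSS57: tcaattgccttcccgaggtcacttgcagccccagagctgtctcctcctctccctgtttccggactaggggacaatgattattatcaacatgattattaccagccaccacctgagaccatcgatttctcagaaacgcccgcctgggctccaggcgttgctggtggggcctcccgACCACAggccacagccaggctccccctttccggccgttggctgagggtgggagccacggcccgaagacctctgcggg
MS4A3: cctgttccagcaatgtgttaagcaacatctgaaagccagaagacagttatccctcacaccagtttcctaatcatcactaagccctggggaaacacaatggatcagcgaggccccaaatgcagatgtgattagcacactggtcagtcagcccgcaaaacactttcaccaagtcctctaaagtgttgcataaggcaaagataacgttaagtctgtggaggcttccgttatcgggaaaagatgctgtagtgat
CTSG: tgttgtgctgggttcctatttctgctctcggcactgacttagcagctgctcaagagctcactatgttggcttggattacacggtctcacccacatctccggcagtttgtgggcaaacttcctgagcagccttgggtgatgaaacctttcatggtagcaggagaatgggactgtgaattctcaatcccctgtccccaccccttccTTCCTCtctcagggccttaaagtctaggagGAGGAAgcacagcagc
The only RUNX core lay in PRSS57, starting 77 bases before the gene's start and read on the opposite strand as ACCACA. PRTN3 had a GAGGAA core starting 88 bases before its start, and CTSG had cores starting 46 and 16 bases before its own. MS4A3 had neither. Over the 35116 promoter windows of the table, 11.0% held TGTGGT and 23.6% held GAGGAA on either strand, so single matches are common. Of the 18 genes of this list, 11 had an entry, 2 with a RUNX core and 3 with a GAGGAA core.

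MPO, myeloperoxidase, the enzyme that defines granulocytic blasts, had 2.899 and 5.23 FPKM in MV-4-11, against 5151 and 4713 FPKM in Kasumi-1. On the log2(FPKM + 1) scale its difference of -9.97 ± 0.25 was the largest of any tested gene (limma, adjusted p = 5.86e-10). The Kasumi-1 mean was 1214 times that of MV-4-11, a fold that rests on the low MV-4-11 values. ELANE, neutrophil elastase, had 75.8 and 98.6 FPKM in MV-4-11, against 634 and 376 FPKM in Kasumi-1, and PRTN3, proteinase 3, had 180.4 and 236 FPKM in MV-4-11, against 1059 and 664 FPKM in Kasumi-1. Both stood well above 50 FPKM in MV-4-11 too, so these proteases were lower there by -2.48 ± 0.26 and -2.02 ± 0.28 without being off. PRSS57, a further serine protease of the same granules, had 72.6 and 106 FPKM in MV-4-11, against 405 and 276 FPKM in Kasumi-1 and was lower by -1.92 ± 0.35. AZU1, azurocidin, the neighbour of PRTN3 and ELANE in the genome, had 389.7 and 470.2 FPKM in MV-4-11, against 435 and 291 FPKM in Kasumi-1, with overlapping libraries and no call (0.27 ± 0.27). PLPPR3, which lies beside the same protease genes, was not called either (-0.18 ± 0.20), nor was CLEC11A, a growth factor of progenitors (0.18 ± 0.28), although CLEC11A was called higher without Kasumi-1 replicate 1 (0.64).

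Other genes of the primary granule and promyelocyte list were higher in MV-4-11. MS4A3, a membrane protein of granulocyte and monocyte progenitors, had 424 and 343 FPKM in MV-4-11, against 0.389 and 0.547 FPKM in Kasumi-1, a difference of 8.03 ± 0.18 (adjusted p = 2.77e-10). SRGN, the proteoglycan core that packs granule proteases, had 1178 and 1004 FPKM in MV-4-11, against 45.2 and 52.1 FPKM in Kasumi-1 and differed by 4.46 ± 0.16. CTSG, cathepsin G, had 168 and 205 FPKM in MV-4-11, against 113 and 92.8 FPKM in Kasumi-1, a smaller 0.85 ± 0.16 that was not called in a fit of all 24 libraries. RNASE2 and RNASE3 are ribonucleases of granulocytes and near copies of each other, between which reads may be split. RNASE2 had 120.3 and 117 FPKM in MV-4-11, against 37.8 and 49.5 FPKM in Kasumi-1, and RNASE3 had 16.2 and 16.8 FPKM in MV-4-11, against 1.67 and 2.91 FPKM in Kasumi-1. CFD, complement factor D, had 125 and 143 FPKM in MV-4-11, against 40.5 and 13.95 FPKM in Kasumi-1, and CST7, a cathepsin inhibitor, had 15.6 and 16.9 FPKM in MV-4-11, against 0.931 and 0.931 FPKM in Kasumi-1. Both were called higher, by 2.43 ± 0.37 and 3.16 ± 0.12, the call of CFD being lost with only the 4 DMSO libraries in the fit. PRG2, an eosinophil granule protein, was low in both lines at 1.26 and 1.87 FPKM in MV-4-11, against 0.4297 and 0.253 FPKM in Kasumi-1 (0.93 ± 0.15). SERPINB10, EPX and CLC stayed under 0.3 FPKM in all 4 libraries.

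The later granules were nearly silent in both lines. Of 17 genes listed with secondary and tertiary granules, not all of them granule proteins, 15 stayed below the filter. LTF, LCN2, CEACAM8, MMP8, CRISP3, S100A12 and FCGR3B were at 0.1 FPKM or less in every library. CAMP was at 0.369 and 0.631 FPKM in MV-4-11, against 0 and 0 FPKM in Kasumi-1. CHI3L1, a secreted chitinase-like protein, had 4.58 and 5.34 FPKM in MV-4-11, against 0.0435 and 0 FPKM in Kasumi-1 and was called higher by 2.54 ± 0.13. CXCR2, a chemokine receptor of neutrophils, had 4.92 and 4.6 FPKM in MV-4-11, against 0.912 and 1.04 FPKM in Kasumi-1 and was called higher by 1.54 ± 0.12. BPI, MMP9, OLFM4, PGLYRP1, ARG1, ORM1 and CHIT1 were all under 0.8 FPKM.

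Tested genes of monocytes and macrophages were mostly higher in MV-4-11. Of 38 listed, 12 stayed below the filter, and 9 were under 0.1 FPKM in both MV-4-11 libraries. Of 26 tested, 23 were called higher, 20 of them at 2-fold, and 2 lower, with a median difference of 1.47. Over all genes 37.3% were called higher, 20% at 2-fold, and 26.4% lower. The filter was passed only through MV-4-11 by 10 of the 26, which fixed their direction. LYZ, lysozyme, had 1156 and 1021 FPKM in MV-4-11, against 5.64 and 4.596 FPKM in Kasumi-1. MS4A6A, a membrane protein of monocytes, had 475 and 434 FPKM in MV-4-11, against 0.101 and 0.0559 FPKM in Kasumi-1. LILRB4, an inhibitory receptor of monocytic leukaemia, had 169 and 204 FPKM in MV-4-11, against 0.243 and 0 FPKM in Kasumi-1. These were far above Kasumi-1 in both MV-4-11 libraries and under 6 FPKM in both of Kasumi-1, with differences of 7.48 ± 0.20, 8.72 ± 0.12 and 7.39 ± 0.14. CCR2, the chemokine receptor of classical monocytes, had 52.3 and 51.5 FPKM in MV-4-11, against 0.109 and 0.1001 FPKM in Kasumi-1 (5.58 ± 0.11), and CD180, a toll-like receptor homologue, had 44.8 and 40.6 FPKM in MV-4-11, against 7.32 and 7.35 FPKM in Kasumi-1 (2.39 ± 0.14). The exceptions were VSIG4, a complement receptor of tissue macrophages, at 0.175 and 0.308 FPKM in MV-4-11, against 5.77 and 6.88 FPKM in Kasumi-1, and MNDA, a nuclear antigen of maturing myeloid cells, at 1.32 and 0.935 FPKM in MV-4-11, against 6.396 and 6.99 FPKM in Kasumi-1. These were called lower by -2.56 ± 0.19 and -1.86 ± 0.17. FCGR1A, a high-affinity antibody receptor, had 59.8 and 61.8 FPKM in MV-4-11, against 31.6 and 35.5 FPKM in Kasumi-1 and was not called (0.84 ± 0.38), although it was called with only the 4 DMSO libraries in the fit (adjusted p = 2.09e-04) and with the Kasumi-1 ABBV-075 libraries left out (2.70e-04).

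Stem and progenitor genes were mostly lower in MV-4-11. Of 24 tested, 16 were called lower at 2-fold and 1 higher, beside 11.8% and 20% of all genes. The median of the list was -2.51, and 11 more listed genes stayed below the filter. Of the 24, 13 passed the filter only through Kasumi-1, which fixed their direction. Over all genes, 857 passed in this way and 676 of them were called lower at 2-fold. CD34, the antigen by which progenitors are sorted, had 0 and 0.0314 FPKM in MV-4-11, against 93.5 and 97.9 FPKM in Kasumi-1. KIT, the stem cell factor receptor, had 3.96 and 3.91 FPKM in MV-4-11, against 172 and 195 FPKM in Kasumi-1. CD200, an immune checkpoint ligand, was listed at 0 in both MV-4-11 libraries, against 41.1 and 44.8 FPKM in Kasumi-1. The differences of CD34 and KIT were -6.57 ± 0.11 and -5.22 ± 0.14 (limma, adjusted p = 1.09e-10 and 6.26e-10). Their libraries did not overlap between the lines, nor did those of 83.9% of all genes. IGF2BP3, an RNA-binding protein of foetal cells, had 0.306 and 0.104 FPKM in MV-4-11, against 38.6 and 41.5 FPKM in Kasumi-1, a difference of -5.10 ± 0.18. GATA2, a stem cell transcription factor, had 0.181 and 0.183 FPKM in MV-4-11, against 7.61 and 6.98 FPKM in Kasumi-1 (-2.81 ± 0.10). The list was not wholly on 1 side: LMO2, a scaffold of the stem cell factors, had 171 and 166 FPKM in MV-4-11, against 58.7 and 54.4 FPKM in Kasumi-1 and was higher in MV-4-11 by 1.56 ± 0.10, MYB, a factor of progenitor growth, had 259 and 227 FPKM in MV-4-11, against 136 and 143 FPKM in Kasumi-1 and was higher by 0.80 ± 0.12, and SOCS2 was higher by 0.85 ± 0.19. MSI2 (-0.11 ± 0.11) and FLI1 (-0.11 ± 0.10) were not called, although FLI1 was called lower after quantile normalization (-0.28), with levels of 47.8 and 49.4 FPKM in MV-4-11, against 53.02 and 52.3 FPKM in Kasumi-1 for FLI1.

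The transcription factors that steer myeloid cells were mostly higher in MV-4-11. Of 36 tested, 25 were called higher and 8 lower, 21 and 4 at 2-fold, with a median of 1.21. Over all genes the shares were 37.3% and 26.4%, and 20% and 11.8% at 2-fold. CEBPA, which commits progenitors to the myeloid line, had 76.8 and 84.8 FPKM in MV-4-11, against 3.401 and 2.36 FPKM in Kasumi-1, a difference of 4.41 ± 0.20 (adjusted p = 2.63e-08). Its relative CEBPE, which drives late granule formation, ran the other way with 0.736 and 0.88 FPKM in MV-4-11, against 31.8 and 27.4 FPKM in Kasumi-1, a difference of -4.08 ± 0.25 (adjusted p = 2.67e-07). So these 2 relatives were higher in different lines, with CEBPA still above 1 FPKM in Kasumi-1. IRF8, a factor of monocytes and dendritic cells, had 216 and 214 FPKM in MV-4-11, against 1.82 and 1.43 FPKM in Kasumi-1 (6.37 ± 0.12). FOS had 360.2 and 382 FPKM in MV-4-11, against 2.96 and 3.22 FPKM in Kasumi-1 and EGR1 had 34.6 and 32.4 FPKM in MV-4-11, against 0.301 and 0.373 FPKM in Kasumi-1, early response genes that also accompany monocyte maturation, with differences of 6.51 ± 0.11 and 4.69 ± 0.13. SPI1, encoding PU.1, was on in both lines with 93.1 and 119.8 FPKM in MV-4-11, against 51.9 and 44.9 FPKM in Kasumi-1 and was called higher by 1.11 ± 0.27 (adjusted p = 0.00421). MYC had 178 and 174 FPKM in MV-4-11, against 265 and 229.7 FPKM in Kasumi-1 and was lower by -0.49 ± 0.11 (adjusted p = 0.00273). MYCN was listed at 0 in both MV-4-11 libraries, against 4.09 and 3.24 FPKM in Kasumi-1. HHEX, a homeobox factor of progenitors, was lower by -1.65 ± 0.20 and ID1, an inhibitor of helix-loop-helix factors, by -1.44 ± 0.22. IRF1 (0.28 ± 0.13) was not called, although it was called in a fit of all 24 libraries (adjusted p = 0.0489) and with the Kasumi-1 ABBV-075 libraries left out (0.0254).

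**Figure D3:**
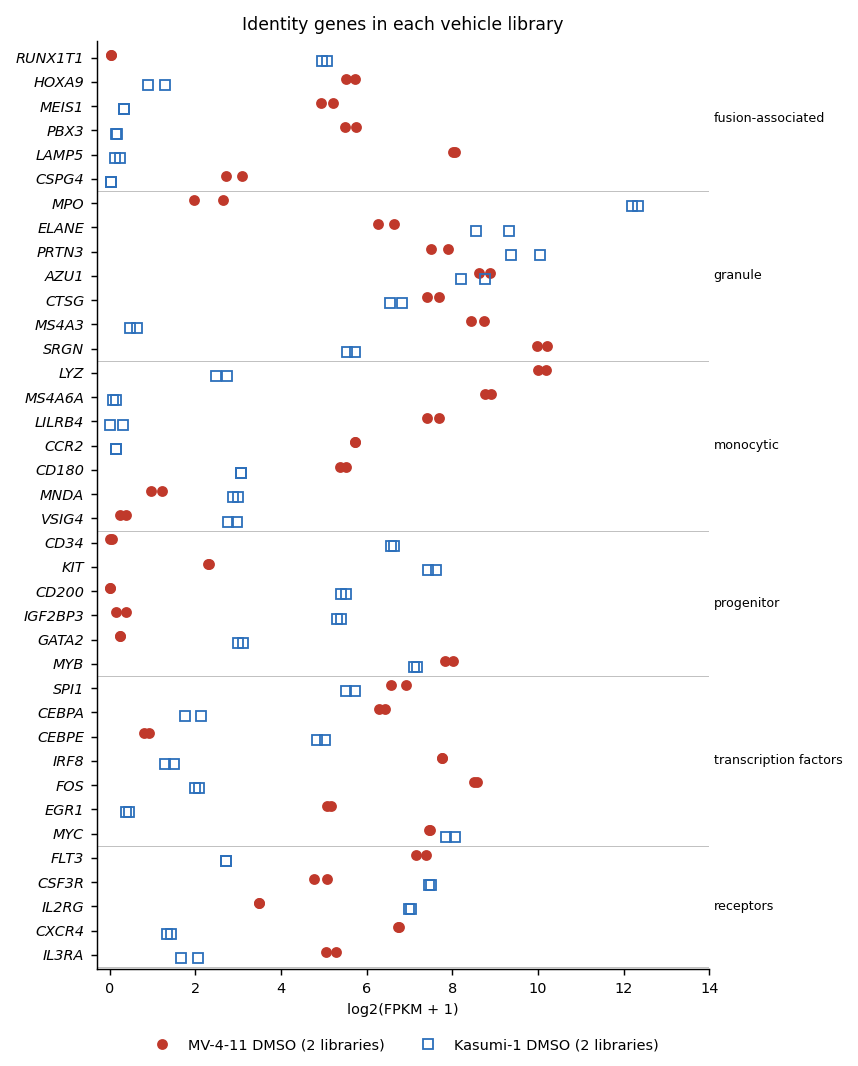
Level of each identity gene as log2(FPKM + 1) in every vehicle library, with MV-4-11 as filled red circles above Kasumi-1 as open blue squares, grouped by role. The libraries of the lines do not overlap for any gene drawn except AZU1, and they do not overlap for 83.9% of all tested genes. CEBPA and CEBPE lie on opposite sides, with CEBPA at 76.8 and 84.8 FPKM and CEBPE at 0.736 and 0.88 FPKM in MV-4-11.

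Receptors for growth factors and cytokines divided between the lines. Of 30 tested, 21 were called higher and 8 lower in MV-4-11, beside 37.3% and 26.4% of all genes. At 2-fold 16 were higher and 6 lower, beside 20% and 11.8%. FLT3, the receptor kinase that carries an activating duplication in MV-4-11, had 165 and 141 FPKM in MV-4-11, against 5.54 and 5.52 FPKM in Kasumi-1, a difference of 4.55 ± 0.13 (adjusted p = 8.96e-10). KIT, described above, was lower. CXCR4, the receptor that holds blasts in the marrow, had 106 and 105 FPKM in MV-4-11, against 1.51 and 1.71 FPKM in Kasumi-1 (5.35 ± 0.10). TNFRSF1B, a receptor for tumour necrosis factor, had 26.4 and 29.5 FPKM in MV-4-11, against 2.49 and 2.605 FPKM in Kasumi-1 (3.03 ± 0.13). IL3RA, the interleukin-3 receptor chain that is also a leukaemia antigen, had 32.2 and 37.9 FPKM in MV-4-11, against 3.198 and 2.18 FPKM in Kasumi-1 (3.30 ± 0.18), a value that is uncertain because the table holds a second row for this gene, to which reads may be lost. CSF3R, the granulocyte colony-stimulating factor receptor, had 26.4 and 32.5 FPKM in MV-4-11, against 181 and 174 FPKM in Kasumi-1 and was lower by -2.56 ± 0.25. IL2RG, the common chain of several interleukin receptors, had 10.2 and 10.2 FPKM in MV-4-11, against 131 and 126 FPKM in Kasumi-1 and was lower by -3.54 ± 0.14, and FGFR1 was lower by -2.14 ± 0.17.

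Output genes of JAK-STAT and RAS-MAPK signalling were also divided (15 higher, 9 lower of 26, beside 37.3% and 26.4% of all genes). PIM1, a kinase induced by STAT5, had 51.7 and 54.2 FPKM in MV-4-11, against 3.19 and 2.09 FPKM in Kasumi-1 and was higher by 3.90 ± 0.15. SOCS3, a feedback inhibitor of cytokine receptors, had 14.4 and 15.2 FPKM in MV-4-11, against 1.04 and 0.824 FPKM in Kasumi-1 (3.04 ± 0.12), and ETV5, an ETS factor downstream of RAS, had 11.5 and 10.3 FPKM in MV-4-11, against 1.19 and 1.07 FPKM in Kasumi-1 (2.48 ± 0.12). STAT5A itself had 9.42 and 11.1 FPKM in MV-4-11, against 52.1 and 52.1 FPKM in Kasumi-1 and was lower in MV-4-11 by -2.24 ± 0.27. SPRY1 and SPRY2, RAS feedback inhibitors, were lower by -1.77 ± 0.09 and -1.57 ± 0.11, and JAK3 by -1.38 ± 0.20. DUSP5 (0.07 ± 0.13) was not called.

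Among antigens used to phenotype leukaemia, 15 of 34 were called higher and 15 lower, beside 37.3% and 26.4% of all genes. The median of the list was 0.13 (-0.04 after quantile normalization). ITGAL, the integrin chain CD11a, had 355 and 371 FPKM in MV-4-11, against 0.661 and 0.5802 FPKM in Kasumi-1 (7.81 ± 0.13). CD36, a scavenger receptor of monocytes, had 22.9 and 20.1 FPKM in MV-4-11, against 0.0572 and 0.0271 FPKM in Kasumi-1 (4.43 ± 0.12), and PECAM1, CD31, had 6.03 and 5.22 FPKM in MV-4-11, against 0.142 and 0.0983 FPKM in Kasumi-1 (2.56 ± 0.10). On the other side, CD96, a leukaemic stem cell antigen, had 0.0624 and 0.0303 FPKM in MV-4-11, against 29.6 and 35.2 FPKM in Kasumi-1 (-4.99 ± 0.14), and CD93, a receptor of early progenitors, had 0.322 and 0.291 FPKM in MV-4-11, against 8.53 and 8.66 FPKM in Kasumi-1 (-2.88 ± 0.09). CD69, an early activation antigen, was listed at 0 in both MV-4-11 libraries, against 13.5 and 16.7 FPKM in Kasumi-1. CD38 (1.97 and 2.98 FPKM in MV-4-11, against 1.53 and 2.33 FPKM in Kasumi-1) and CD52 (2.18 and 1.99 FPKM in MV-4-11, against 2.23 and 1.905 FPKM in Kasumi-1) were low in both lines and not called.

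Antigen presentation by MHC class II was higher in MV-4-11 for 13 of 14 tested genes, beside 37.3% of all genes. At 2-fold 10 were higher, beside 20%, and the median was 1.9. The filter was passed only through MV-4-11 by 5 of the 14, which fixed their direction. HLA-DRA, the alpha chain shared by DR molecules, had 81.9 and 84.6 FPKM in MV-4-11, against 9.2 and 11 FPKM in Kasumi-1 (2.93 ± 0.20). HLA-DRB1 had 46.8 and 45.3 FPKM in MV-4-11, against 1.395 and 1.51 FPKM in Kasumi-1 (4.26 ± 0.13) and HLA-DQB1 had 10.4 and 12.7 FPKM in MV-4-11, against 0.324 and 0.144 FPKM in Kasumi-1 (3.34 ± 0.13). Values of these genes are uncertain, since they are near copies of one another and differ between people. RFX5, a factor that drives their promoters, was the member called lower, with 29.7 and 31.4 FPKM in MV-4-11, against 38.1 and 40.3 FPKM in Kasumi-1 (-0.35 ± 0.12), a call lost when any of the 4 libraries was left out. Of 19 genes of the class I pathway, 10 were called higher, 8 of them at 2-fold, and 3 lower, with a median of 0.79. Over all genes these shares were 37.3%, 20% and 26.4%. B2M, the shared light chain, had 972 and 862 FPKM in MV-4-11, against 834 and 1039 FPKM in Kasumi-1 and was not called (-0.02 ± 0.16). HLA-F (3.06 ± 0.21), the immunoproteasome subunit PSMB9 (19.7 and 25.5 FPKM in MV-4-11, against 2.36 and 2.85 FPKM in Kasumi-1, 2.70 ± 0.22) and the peptide transporter TAP1 (1.36 ± 0.20) were higher. The chaperone CALR had 225 and 243 FPKM in MV-4-11, against 1160 and 958 FPKM in Kasumi-1 and was lower by -2.17 ± 0.16, and the trimming peptidases ERAP2 and ERAP1 were lower by -1.92 ± 0.13 and -1.03 ± 0.13.

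Interferon-stimulated genes did not share a direction, with 9 called higher, 9 lower and 6 not called of 24. Among all genes 37.3% were called higher and 26.4% lower. IFIT1, a sensor of foreign RNA, had 0.073 and 0.0276 FPKM in MV-4-11, against 6.53 and 7.895 FPKM in Kasumi-1 (-2.96 ± 0.24). IFIT2, IFIT3 and IFI44 were lower in the same way, by -2.27 ± 0.12, -2.97 ± 0.18 and -2.57 ± 0.27, each under 0.2 FPKM in MV-4-11. XAF1, a pro-apoptotic member, had 37.4 and 32.3 FPKM in MV-4-11, against 1.61 and 1.73 FPKM in Kasumi-1 and was higher by 3.74 ± 0.23, and so were MX2 (2.38 ± 0.30), BST2 (1.44 ± 0.30) and IFITM1 (1.44 ± 0.50), the last no longer called when any of the 4 libraries was left out.

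The phagocyte oxidase that makes superoxide had 5 of 7 genes called higher and 1 lower, beside 37.3% and 26.4% of all genes. NCF4, a cytosolic subunit, had 155 and 178 FPKM in MV-4-11, against 60.6 and 59.2 FPKM in Kasumi-1 (1.46 ± 0.19). RAC2, the GTPase of the complex, had 245 and 280.1 FPKM in MV-4-11, against 116 and 93.9 FPKM in Kasumi-1 (1.32 ± 0.20). NCF1, which shares reads with near-identical pseudogenes and is therefore uncertain, was higher by 2.25 ± 0.25.

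In the BCL2 family, 9 of 15 genes were called higher in MV-4-11 and 2 lower, beside 37.3% and 26.4% of all genes. BCL2, the survival protein targeted by venetoclax, had 39.8 and 36.3 FPKM in MV-4-11, against 10.1 and 9.46 FPKM in Kasumi-1 and was higher by 1.86 ± 0.13 (adjusted p = 7.13e-07). BCL2L10, a related survival gene, had 17.8 and 17.3 FPKM in MV-4-11 and was listed at 0 in both Kasumi-1 libraries. BCL2L1, encoding BCL-xL, had 11.4 and 12.9 FPKM in MV-4-11, against 21.2 and 21.7 FPKM in Kasumi-1 and was lower by -0.78 ± 0.19, and BOK, a pro-apoptotic member, was lower by -1.28 ± 0.14. The pro-apoptotic members did not share a direction. BAX had 299 and 328 FPKM in MV-4-11, against 68.3 and 70.2 FPKM in Kasumi-1 (2.16 ± 0.21), BBC3, encoding PUMA, had 18.1 and 22.1 FPKM in MV-4-11, against 0.292 and 0.4495 FPKM in Kasumi-1 (3.94 ± 0.15), and BMF had 19.3 and 21.7 FPKM in MV-4-11, against 1.84 and 1.94 FPKM in Kasumi-1 (2.89 ± 0.16), all called higher, while the 4 genes of the family that were not called are pro-apoptotic too. BCL2L11, encoding BIM, had 6.19 and 6.32 FPKM in MV-4-11, against 6.91 and 6.395 FPKM in Kasumi-1 and was not called (-0.08 ± 0.12).

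Targets of p53 were higher in MV-4-11 for 20 of 24 tested genes, 14 of them at 2-fold, with 1 lower and a median of 1.5. Over all genes these shares were 37.3%, 20% and 26.4%. CDKN1A, encoding the cell cycle inhibitor p21, had 44.97 and 53.3 FPKM in MV-4-11, against 0.804 and 0.906 FPKM in Kasumi-1 (4.75 ± 0.19, adjusted p = 8.32e-09). PHLDA3, an inhibitor of AKT, had 14.4 and 16.4 FPKM in MV-4-11, against 0.102 and 0 FPKM in Kasumi-1 (3.96 ± 0.16), and BTG2, an antiproliferative gene, had 11.9 and 12.3 FPKM in MV-4-11, against 0.0581 and 0.1598 FPKM in Kasumi-1 (3.56 ± 0.11). TP53INP1 was the member called lower, with 2.26 and 2.03 FPKM in MV-4-11, against 6.48 and 6.33 FPKM in Kasumi-1 (-1.24 ± 0.12). CCNG1 had 113 and 91.1 FPKM in MV-4-11, against 99.6 and 120.3 FPKM in Kasumi-1 and was not called (-0.11 ± 0.20). The filter was passed only through MV-4-11 by 7 members, which fixed their direction, and only through Kasumi-1 by none.

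In the G1 list, 9 genes were called higher, 5 lower and 7 not called, beside 37.3% higher and 26.4% lower over all genes. The median of the list was 0.16 (-0.04 after quantile normalization). CDKN2D, encoding the inhibitor p19, had 25.8 and 31.6 FPKM in MV-4-11, against 0.687 and 0.719 FPKM in Kasumi-1 (4.12 ± 0.20), and CDKN2A, encoding p16 and ARF, had 57.9 and 69.9 FPKM in MV-4-11, against 9.58 and 5.04 FPKM in Kasumi-1 (3.02 ± 0.26). CDKN2C, encoding p18, ran the other way, with 23.6 and 22.7 FPKM in MV-4-11, against 54.1 and 55.4 FPKM in Kasumi-1 (-1.21 ± 0.10). CCND3, a D-type cyclin, had 69.7 and 76.4 FPKM in MV-4-11, against 9.91 and 8.26 FPKM in Kasumi-1 (2.88 ± 0.22), while its partner kinase CDK6 had 40.2 and 34.4 FPKM in MV-4-11, against 61.1 and 61.5 FPKM in Kasumi-1 and was lower by -0.71 ± 0.15 (adjusted p = 0.002497). E2F3 was lower by -1.12 ± 0.12, and CCNE1 had nearly the same level in both lines at 19.5 and 20.1 FPKM in MV-4-11, against 20.2 and 19.3 FPKM in Kasumi-1 (0.00 ± 0.10, 95% interval -0.23 to 0.24).

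Among genes of mitosis and replication the 2-fold calls were 6 of 30 higher, beside 20% of all genes, and 0 lower, beside 11.8%. In all, 16 of the 30 were not called, 13 were higher and 1 lower, with a median of 0.29. MKI67, the gene of the Ki-67 antigen, had 41.3 and 43.98 FPKM in MV-4-11, against 43.3 and 48.5 FPKM in Kasumi-1 (-0.10 ± 0.15, 95% interval -0.43 to 0.23), and TOP2A had 124 and 104 FPKM in MV-4-11, against 94.5 and 109 FPKM in Kasumi-1 (0.16 ± 0.17). The largest differences were those of CDT1, a licensing factor (63.1 and 76.01 FPKM in MV-4-11, against 19 and 13.5 FPKM in Kasumi-1, 2.04 ± 0.28), and AURKB, a mitotic kinase (48.8 and 56.2 FPKM in MV-4-11, against 16.03 and 13.5 FPKM in Kasumi-1, 1.76 ± 0.20). PLK1 (1.29 ± 0.19) and RRM2 (1.15 ± 0.11) followed, and GINS1 was the gene called lower (-0.40 ± 0.13), not called when Kasumi-1 replicate 1 or either MV-4-11 library was left out.

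BRD2 and BRD3 belong to the BET genes, whose products the study's compounds bind. BRD3 had 12.9 and 14.7 FPKM in MV-4-11, against 11.4 and 8.76 FPKM in Kasumi-1 and was called higher by 0.42 ± 0.14 (adjusted p = 0.0217), a call lost under each other scaling and without MV-4-11 replicate 2 or Kasumi-1 replicate 2. BRD2 had 68.7 and 74.3 FPKM in MV-4-11, against 64.3 and 63.1 FPKM in Kasumi-1 and was not called (0.16 ± 0.13). HEXIM1, a sensitive reporter of BET inhibition, had 9.098 and 9.21 FPKM in MV-4-11, against 16.5 and 13.9 FPKM in Kasumi-1 and was lower by -0.67 ± 0.11. SERPINI1, another reporter, stayed below the filter at 1.19 and 0.945 FPKM in MV-4-11, against 0.855 and 0.878 FPKM in Kasumi-1.

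Of 21 genes of DNA methylation, the Polycomb group and related chromatin enzymes, 4 were called higher, 7 lower and 10 not called. Among all genes 37.3% were called higher and 26.4% lower. TET1, which oxidises methylcytosine, had 0.246 and 0.103 FPKM in MV-4-11, against 13.6 and 13.01 FPKM in Kasumi-1 (-3.61 ± 0.16), while TET2 (-0.13 ± 0.13) was not called. CBX2, a Polycomb reader, had 3.84 and 4.703 FPKM in MV-4-11, against 44.2 and 38.8 FPKM in Kasumi-1 (-3.01 ± 0.22). DNMT3A, a de novo methyltransferase, had 5.65 and 6.64 FPKM in MV-4-11, against 25.1 and 22.5 FPKM in Kasumi-1 (-1.80 ± 0.12), and KDM1A, the demethylase LSD1, had 33.03 and 32.03 FPKM in MV-4-11, against 86.6 and 77.8 FPKM in Kasumi-1 (-1.31 ± 0.11). Those 4 were lower in MV-4-11. IDH1 (1.04 ± 0.12), CBX7 (0.94 ± 0.15) and DNMT1 (0.88 ± 0.15) were higher, and EZH2, the Polycomb methyltransferase, was higher by 0.47 ± 0.12, a call lost after quantile normalization and without MV-4-11 replicate 1.

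**Figure D4:**
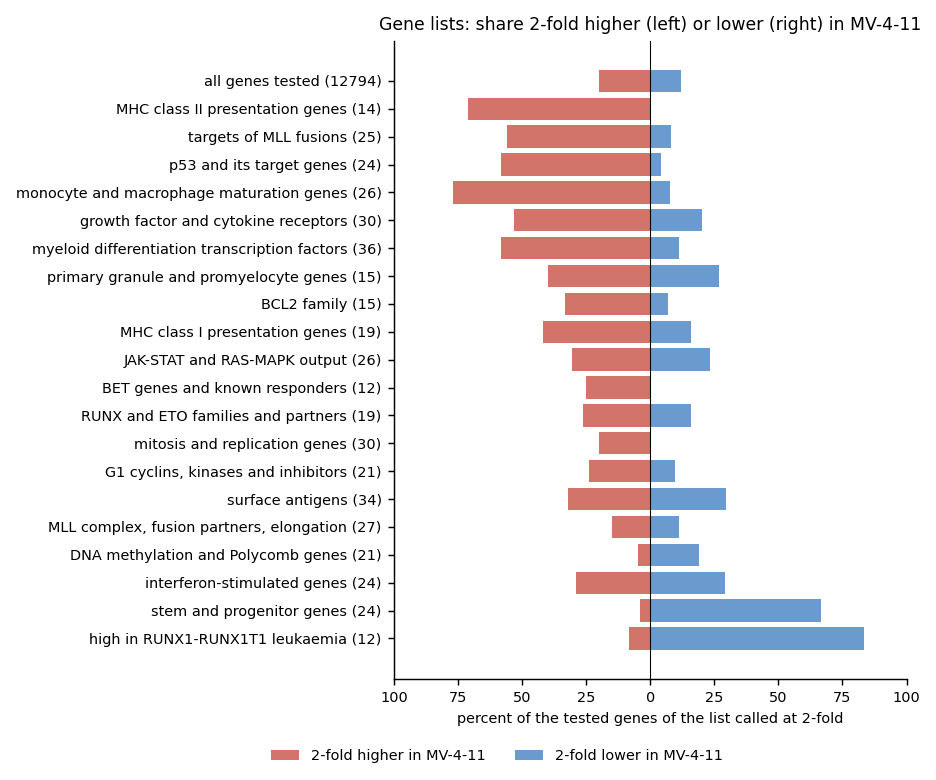
Percent of the tested genes of each list with 12 or more tested members that were called at 2-fold, higher in MV-4-11 in red to the left and lower in blue to the right, with the number tested in parentheses and lists ordered by their median difference below all 12794 genes. Among all genes 20% were higher and 11.8% lower. The lists at the foot, stem and progenitor genes and genes listed as high in RUNX1-RUNX1T1 leukaemia, are mostly lower.

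By size alone, the 15 genes highest in MV-4-11 with a mean of at least 5 FPKM there were MS4A6A, MS4A3, CSTA, APOC2, LAMP5, ITGAL, BEX1, LYZ, VIM, LILRB4, TYROBP, MT1F, LGALS1, SNRPN and CAPG. CSTA, the cysteine protease inhibitor cystatin A of myeloid cells, had 472 and 360 FPKM in MV-4-11, against 0.523 and 0.838 FPKM in Kasumi-1 (7.95 ± 0.23). APOC2, an activator of lipoprotein lipase, had 278 and 299 FPKM in MV-4-11, against 0.131 and 0.321 FPKM in Kasumi-1 (7.89 ± 0.14). TYROBP, the adaptor DAP12 of myeloid receptors, had 244 and 322 FPKM in MV-4-11, against 0.857 and 0.786 FPKM in Kasumi-1 (7.27 ± 0.15). VIM, the intermediate filament protein vimentin, which most blood cells contain, had 306 and 289.6 FPKM in MV-4-11, against 0.792 and 0.7502 FPKM in Kasumi-1 and was thus nearly silent in Kasumi-1 (7.40 ± 0.14). CAPG, an actin-capping protein of macrophages, had 140.3 and 176 FPKM in MV-4-11, against 0.273 and 0.5997 FPKM in Kasumi-1 (6.79 ± 0.15), BEX1, a small signalling adaptor, had 236 and 239 FPKM in MV-4-11, against 0.274 and 0.115 FPKM in Kasumi-1 (7.64 ± 0.23), and MT1F, a metallothionein with near-identical paralogues, had 158 and 170.2 FPKM in MV-4-11, against 0.383 and 0.221 FPKM in Kasumi-1 (6.99 ± 0.14). The 15 lowest were MPO, ITM2A, SPARC, CD34, TRH, CLEC5A, VSTM1, EPCAM, JUP, COCH, PTPRCAP, CYTL1, TSPAN7, GSTM3 and PRSS21. ITM2A, a membrane protein of differentiating cells, had 0.0231 and 0.122 FPKM in MV-4-11, against 108 and 147 FPKM in Kasumi-1 (-6.89 ± 0.18). CLEC5A, a myeloid lectin that signals through DAP12, had 0.202 and 0.175 FPKM in MV-4-11, against 99.8 and 104 FPKM in Kasumi-1 (-6.43 ± 0.10), so in MV-4-11 the receptor was nearly absent and the adaptor high, and in Kasumi-1 the reverse. VSTM1, an inhibitory receptor of granulocytes, had 0 and 0.0374 FPKM in MV-4-11, against 65.2 and 68.6 FPKM in Kasumi-1 (-6.06 ± 0.12), and PTPRCAP, a partner of the phosphatase CD45, had 0.368 and 0.573 FPKM in MV-4-11, against 110.1 and 69.2 FPKM in Kasumi-1 (-5.91 ± 0.29). CYTL1, a cytokine-like protein of CD34-positive cells, had 0.0196 and 0.0248 FPKM in MV-4-11, against 60.7 and 56.7 FPKM in Kasumi-1 (-5.87 ± 0.12), and EPCAM, an adhesion protein of epithelia, had 0.0228 and 0.0576 FPKM in MV-4-11, against 70.7 and 62.2 FPKM in Kasumi-1 (-6.02 ± 0.15). COCH, TSPAN7, GSTM3 and PRSS21 differed by -5.98 to -5.77, with MV-4-11 under 0.6 FPKM for each.

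Markers of erythroid, T, NK and B cells were mostly absent from both lines. Of 20 erythroid genes, 17 were below the filter, and 15 were under 0.1 FPKM in MV-4-11 and 16 in Kasumi-1. GYPC, a membrane skeleton protein also found outside red cells, had 3.19 and 3.09 FPKM in MV-4-11, against 207 and 224 FPKM in Kasumi-1 (-5.71 ± 0.27). Of 22 T and NK cell genes, 20 were below the filter, and of 17 B-cell genes 13. NKG7, a cytotoxic granule protein, was the T and NK cell gene with a clear level, at 33.2 and 43.5 FPKM in MV-4-11, against 0.491 and 0.577 FPKM in Kasumi-1 (4.67 ± 0.19). CD79B, a signalling chain of the B-cell receptor, had 0.762 and 1.44 FPKM in MV-4-11, against 15.4 and 15.6 FPKM in Kasumi-1 (-2.99 ± 0.22), and BLK, a B-cell kinase, had 4.56 and 5.48 FPKM in MV-4-11 and was listed at 0 in Kasumi-1. Of 19 epithelial and mesenchymal genes, 10 were below the filter and 9 were tested, among them VIM, SPARC and EPCAM, described above. CDH2, N-cadherin, had 0 and 0.0064 FPKM in MV-4-11, against 11.1 and 10.96 FPKM in Kasumi-1 (-3.58 ± 0.09). KRT18, a keratin, had 5.97 and 7.19 FPKM in MV-4-11, against 0.138 and 0.061 FPKM in Kasumi-1 (2.78 ± 0.15). FCER1A, a mast cell and basophil receptor chain, had 2.63 and 3.36 FPKM in MV-4-11 and was listed at 0 in Kasumi-1. Their part in the differences above was not tested.

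The same lines treated for 24 h with ABBV-075 at 100 nM or ABBV-744 at 200 nM gave the comparison again, with FPKM levels from other libraries. The tests are not independent of the vehicle comparison, because all 12 libraries share 1 estimate of the spread per gene. Under ABBV-075, 43.1% of genes were called higher and 25.4% lower in MV-4-11, and under ABBV-744 40.0% and 23.5%. Of the 2557 genes higher at 2-fold in DMSO, 2306 (90.2%) were called higher under ABBV-075 and 2463 (96.3%) under ABBV-744. Of the 1512 lower genes, 1275 (84.3%) and 1445 (95.6%) were called lower. Opposite calls were made for 14 of the higher and 33 of the lower genes under ABBV-075, and for 2 and 5 under ABBV-744. The Kasumi-1 libraries under ABBV-075 stood further apart than other pairs, with a standard deviation of the log2 difference of 0.473.

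Several of the genes described above had the same direction in all 3 comparisons. MPO differed by -10.38 under ABBV-075 and -10.72 under ABBV-744, RUNX1T1 by -5.74 and -5.30, CD34 by -5.16 and -6.07, and KIT by -4.88 and -5.37. HOXA9 stood at 6.17 and 4.83, and HOXA10, with 0.61 ± 0.14 in DMSO, at 3.37 and 1.89. Other differences were narrower or wider under treatment, with no test of the change in the difference. CCR2 differed by 5.58 ± 0.11 in DMSO, 0.53 under ABBV-075 and 2.30 under ABBV-744, and under ABBV-075 it had 0.598 and 0.355 FPKM in MV-4-11, against 0.0154 and 0.0293 FPKM in Kasumi-1. CSPG4 differed by 0.19 under ABBV-075 and 1.32 under ABBV-744, and CST7 by 0.13 and 0.14. SPI1 was at 4.37 and 2.12, and LMO2 at 4.62 and 2.03. MYC, lower in MV-4-11 in DMSO, was at 1.42 under ABBV-075 and 0.10 under ABBV-744. PRTN3, lower in DMSO, was at 1.10 under ABBV-075 and -1.66 under ABBV-744.

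**Figure D5:**
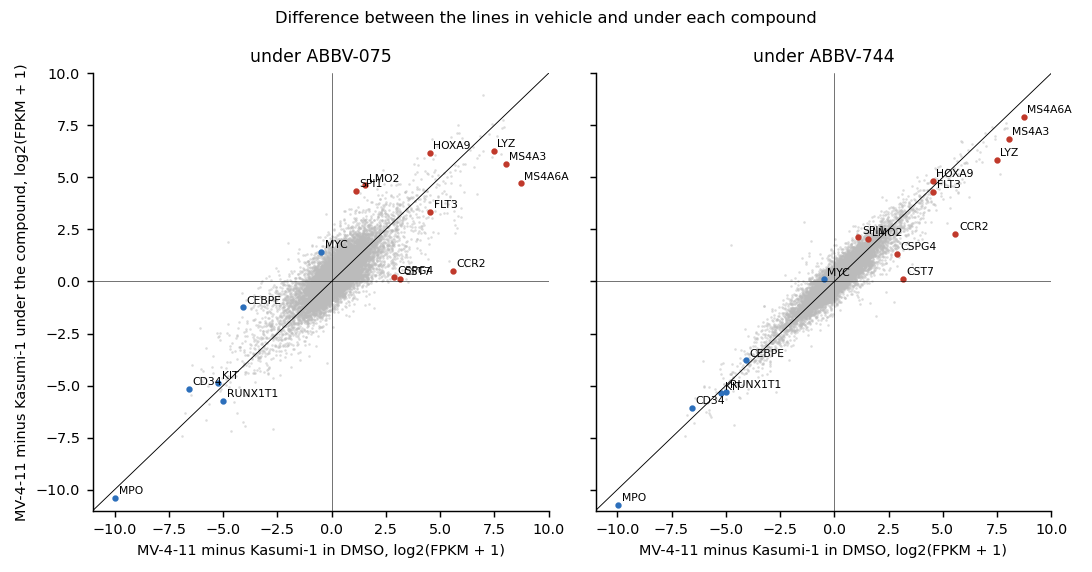
Difference between the lines, MV-4-11 minus Kasumi-1 in log2(FPKM + 1), in DMSO (horizontal axes) and under ABBV-075 or ABBV-744 (vertical axes), 1 grey point a gene, with the line of equal differences in black. MPO and RUNX1T1 lie near the line in both panels, HOXA9 lies above it under ABBV-075 (6.17, beside 4.53 in DMSO), and CCR2, at 0.53 under ABBV-075 and 5.58 in DMSO, lies well below it.

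The other lines of the series placed these levels on a wider scale, as a description without a test. SKM-1, the other leukaemia line of the series, had 3374 and 2328 FPKM of MPO and 26.6 and 16.98 FPKM of CEBPE. It also had 107 and 67.6 FPKM of CEBPA and 20.98 and 27.3 FPKM of HOXA9. So genes that divided MV-4-11 from Kasumi-1 were on together there. Its CD34 was at 0.193 and 1.07 FPKM, KIT at 46.6 and 36.5 FPKM, LYZ at 194 and 278 FPKM and MS4A3 at 159.5 and 166 FPKM. RUNX1T1 was at 0.0206 and 0.784 FPKM and MEIS1 at 0.229 and 0.916 FPKM in SKM-1. The SKM-1 libraries stood apart for some genes, with LAMP5 at 0.07 and 8.72 FPKM, APOC2 at 0 and 6.58 and BEX1 at 0.779 and 18.01. For others, such as ITGAL at 39.9 and 43.7 FPKM, they were close. The cause was not tested, and low levels in SKM-1 are uncertain. NCI-H1299, the lung line, had 0.955 and 2.34 FPKM of MPO, 0.0705 and 0.09 FPKM of SPI1 and 0.006 and 0.0475 FPKM of CD34. PBX3, at 56.5 and 56.6 FPKM there, and HMGA2, at 234 and 243 FPKM, were thus on in a line that is not of blood origin. VIM was at 1606 and 1578 FPKM in NCI-H1299 and 22.5 and 42.8 FPKM in SKM-1, so Kasumi-1 had the lowest VIM of the 4 lines.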

How the data were processed

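RNA-seq of 4 DMSO libraries was analysed, from a table of 24 libraries in which the authors deposited FPKM per gene. The submitters' processing notes name DESeq2; the aligner, quantifier, genome build, annotation and strand handling were not given in the sources used here. The FPKM were used as deposited. Levels were compared as log2(FPKM + 1) with limma 3.58.1 in R 4.3.3, as 6 group means over the 12 libraries of both lines (contrast of the DMSO groups, eBayes with trend and robust), on the 12794 genes at 1 FPKM or more in 2 of the 4 libraries, with p-values adjusted by Benjamini-Hochberg over all of them. The script was tested on simulated data. The genes and lists were chosen with earlier results of these data known, so they are no independent support. Genes were named by rule: a fixed set, the 15 largest differences each way with a mean of at least 5 FPKM in the higher line, and from each list up to 4 called genes each way and up to 2 not called, with all HOX, cofactor and granule genes; some genes under this rule are not reported here. Of 637 list genes 634 were found, 8 by an older name. Promoters came from RefSeq (GRCh38.p14). The depth of the libraries is unknown. Alternatives (pseudocount, filter, libraries, scaling, variance model, each library left out) are in the closing section.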

Additional observations from a re-analysis of the deposited data

How the results depend on the processing

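In the DMSO comparison, the counts of calls stayed within 1.5 times their value in all 15 alternative settings except with the filter at 1 FPKM in all 4 libraries, where 1529 genes were higher and 797 lower at 2-fold, because that filter removes genes off in 1 line. Calls higher in MV-4-11 ran from 4018 to 4303 and calls lower from 2745 to 2916 when 1 of the 4 libraries was left out, a fit in which the lone library is assumed to vary like the other groups; at 2-fold they ran from 2439 to 2672 and from 1463 to 1537. Quantile normalization gave 3967 higher and 4249 lower, median-ratio scaling 4273 and 3844, and leaving out mitochondrial transcripts 4301 and 3687. Leaving the Kasumi-1 ABBV-075 libraries out of the fit, added after seeing the data, gave 5272 and 3808.

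Over 216 named genes and these settings, 3032 of 3119 values kept their direction and side of the threshold, 49 lost the call, 12 gained it and 26 turned sign, each of the last in a gene that was not called. AZU1 gave -0.023 to 0.56 with 1 library left out (sign turned without Kasumi-1 replicate 2). B2M gave 0.047 (quantile normalization) and -0.18 to 0.13 with 1 library left out (sign turned without MV-4-11 replicate 2 or Kasumi-1 replicate 2). BRD2 gave -0.033 (quantile normalization). CCND2 gave -0.071 (quantile normalization) and -0.069 to 0.28 with 1 library left out (sign turned without Kasumi-1 replicate 2). CCNE1 gave -0.19 (quantile normalization), -0.11 (median-ratio scaling), -0.094 (mitochondrial transcripts left out) and -0.032 to 0.033 with 1 library left out (sign turned without MV-4-11 replicate 2 or Kasumi-1 replicate 2). CCNG1 gave -0.26 to 0.045 with 1 library left out (sign turned without MV-4-11 replicate 2 or Kasumi-1 replicate 2). CD52 gave -0.16 (quantile normalization), -0.070 (median-ratio scaling), -0.057 (mitochondrial transcripts left out) and -0.067 to 0.086 with 1 library left out (sign turned without MV-4-11 replicate 1 or Kasumi-1 replicate 2). CLEC11A gave -0.29 to 0.64 with 1 library left out (sign turned without Kasumi-1 replicate 2). DUSP5 gave -0.093 (quantile normalization) and -0.0092 (median-ratio scaling). MEN1 gave -0.23 to 0.14 with 1 library left out (sign turned without MV-4-11 replicate 1 or Kasumi-1 replicate 1). TOP2A gave -0.029 (quantile normalization). WDR5 gave -0.071 (quantile normalization).

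No paired analysis was possible because the labels carry no replicate numbers and the numbers used here follow the order of the samples. With 2 libraries a line and unknown depth, no counting error can be given for genes of low FPKM. The cause of these changes was not tested.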

Other observations

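Ordered along the chromosomes by RefSeq, 11164 tested protein-coding genes could be placed, and 46 runs of 5 or more neighbours were called at 2-fold in 1 direction, 40 higher and 6 lower in MV-4-11; how many runs chance gives was not tested, and these genes were chosen after their values were seen. The longest run held 10 genes and covered the MHC class II genes described above. A run of 7 held genes of the imprinted Prader-Willi region. SNRPN, a splicing protein gene expressed from the paternal copy, had 115 and 120.2 FPKM in MV-4-11, against 0.0526 and 0.0311 FPKM in Kasumi-1 (6.83 ± 0.11). NDN, another paternally expressed gene, had 8.52 and 9.095 FPKM in MV-4-11 and was listed at 0 in both Kasumi-1 libraries. MKRN3 had 3.12 and 3.797 FPKM in MV-4-11, against 0 and 0.0431 FPKM in Kasumi-1, ATP10A had 14 and 16.7 FPKM in MV-4-11, against 0 and 0.0365 FPKM in Kasumi-1, and UBE3A, active from both copies outside neurons, had 30.5 and 24.2 FPKM in MV-4-11, against 10.6 and 11.5 FPKM in Kasumi-1 (1.22 ± 0.20). SNRPN and SNURF overlap, so their reads may be shared.

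A run of 8 genes that were lower in MV-4-11 held PPAT and PAICS, enzymes of purine synthesis that share a promoter region. PPAT had 13.8 and 12.4 FPKM in MV-4-11, against 54.1 and 59.2 FPKM in Kasumi-1 (-2.03 ± 0.16), and PAICS had 125 and 115 FPKM in MV-4-11, against 346 and 364 FPKM in Kasumi-1 (-1.56 ± 0.12). SRP72, a subunit of the signal recognition particle nearby, had 67.6 and 58.9 FPKM in MV-4-11, against 200.5 and 234 FPKM in Kasumi-1 (-1.76 ± 0.16), and HOPX was listed at 0 in both MV-4-11 libraries, against 2.34 and 2.44 FPKM in Kasumi-1. A run of 6 metallothionein genes was higher in MV-4-11. MT1E had 200.3 and 227 FPKM in MV-4-11, against 12.3 and 12.7 FPKM in Kasumi-1, MT1G had 106 and 111 FPKM in MV-4-11, against 7.96 and 4.83 FPKM in Kasumi-1, and MT1X had 113 and 113 FPKM in MV-4-11, against 39.1 and 40.5 FPKM in Kasumi-1, while reads of these near-identical genes may be split. A run of 7 genes included S100 calcium-binding proteins: S100A8 had 2.59 and 1.99 FPKM in MV-4-11, against 0.1505 and 0 FPKM in Kasumi-1 (1.61 ± 0.14), S100A9 had 4.11 and 4.25 FPKM in MV-4-11, against 2.46 and 0.6005 FPKM in Kasumi-1 (1.14 ± 0.32, a call lost without Kasumi-1 replicate 2 and with only the 4 DMSO libraries in the fit), and S100A4 had 342 and 351 FPKM in MV-4-11, against 102 and 91.99 FPKM in Kasumi-1 (1.82 ± 0.13).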
